A study of Drosophila melanogaster with 14 samples.

Results

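Larval brain neuroblasts of the type II class of Drosophila melanogaster that overexpressed osa were compared with their own control cells, 2 libraries against 2. Members of the comparison were all genes that passed an expression filter on these 4 libraries, which were 9156 of the 17868 genes in the count table. The 4 libraries are part of a series of 14, the other 10 of which belong to experiments with RNAi against GAF or HDAC1 and have controls of their own. The genotypes are Osa overexpression and WT in the sample labels, although the series' own design statement names an osa knockdown. No label names the driver, the transgene or the age of the larvae. Nor does one say that both libraries of a group came from separate crosses, so the spread behind each p-value may be technical. Polyadenylated RNA of 1k to 2k cells per library was amplified before sequencing, per the labels, and the 4 libraries held 31788351 to 34062172 counts.

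Osa is the signature subunit of the BAP form of the Brahma complex, the SWI/SNF-type chromatin remodeller of Drosophila, which moves nucleosomes with the energy of ATP. Type II neuroblasts divide asymmetrically to renew themselves and to produce intermediate neural progenitors. These progenitors express asense (ase) and earmuff (erm) as they mature, pass through a temporal sequence of transcription factors and yield ganglion mother cells, neurons and glia. In this lineage Osa is known to restrain progenitors from returning to a neuroblast state, and hamlet (ham) and odd-paired (opa) are known as genes that act with it in progenitors.

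The targeted gene was measured first, and it was higher in both libraries labelled Osa overexpression. The count of osa was 146 and 150 CPM (counts scaled to a common library size by TMM) in the controls and 299 and 288 CPM in the overexpression libraries (log2 fold change 0.99 ± 0.13 SE, edgeR adjusted p = 0.0029). The gene lies at 3R:17687818-17718350 on the minus strand (FBgn0261885, BDGP6 annotation, the assembly of dm6), and no other annotated exon overlaps its exons. The rise passed the test in every alternative tried but a fit of all 14 libraries, where it was 0.99 with an edgeR adjusted p of 0.0642. Counts cannot tell RNA of a transgene from RNA of the gene itself.

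Other subunits of the Brahma complex were higher too, unevenly. The 12 listed subunits, osa itself among them, all passed the filter. Of these 4 were called higher (osa, mor, Bap60 and Bap170) and 0 lower. The background was 8.86% of all tested genes called higher and 12.2% called lower (21.1% in either direction). The log2 fold changes of the 12 subunits ran from −0.06 to 1.32 with a median of 0.58, where the median of all genes tested was 0.05. The gene moira (mor), a core subunit that scaffolds the complex, rose from 45.7 and 42.4 CPM to 153 and 67.1 CPM (1.32 ± 0.34, edgeR adjusted p = 0.0328). Bap60 rose from 274 and 229 CPM to 399 and 335 CPM (0.55 ± 0.15, edgeR adjusted p = 0.033). Bap170, a subunit of the PBAP form, which does not contain Osa, rose from 48.7 and 62.5 CPM to 137 and 73.6 CPM (0.92 ± 0.28, edgeR adjusted p = 0.0465). In mor and Bap170 the first overexpression library stood well above the second, although neither group overlapped the other. The ATPase gene brm (0.61 ± 0.22, edgeR adjusted p = 0.0803) and polybromo, another PBAP subunit (1.01 ± 0.33, edgeR adjusted p = 0.0646), did not pass. Snr1 (−0.06 ± 0.13) and Bap55 (0.06 ± 0.13) did not pass either. Calls of subunits numbered 1 without either control, 3 without the first overexpression library and 8 without the second, and 0 in the fit of 14 libraries. With the trend of fold change on exonic length removed (described next), osa alone kept its call, and so it did without either control. Bap170 lost its call in limma-voom, with a block for replicate number and by leaving out the first overexpression library too.

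Across the genome 1929 genes were called at an edgeR adjusted p under 0.05, of which 811 were higher and 1118 lower in the overexpression libraries. Of these, 304 higher and 264 lower genes differed at least 2-fold. In all 1929 the libraries of the 2 groups did not overlap, as was so for 33.7% of all tested genes in the upward and 32.1% in the downward direction. With leaving out a library the number called was 498 without the first control, 572 without the second, 1609 without the first overexpression library and 3535 without the second. Scaling by library size alone moved the median of all genes up by 0.27 on the log2 scale, and 78.5% of calls were then higher, against 42.0% with TMM. No gene called with TMM was called in the opposite direction there or in any other setting tried. In a fit of all 14 libraries 354 genes passed, 49 higher and 305 lower.

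Fold changes followed the length of the transcripts. Among 8512 protein-coding genes, those in the shortest decile of exonic length (up to 887 bases) had a median log2 fold change of −0.53, and 40.7% of them were called lower and 0.704% higher. In the eighth decile (3344 to 4357 bases) the median was 0.52, with 23.9% called higher and 3.17% lower. The median fell back to 0.15 in the longest decile. Genes called higher had a median exonic length of 3382 bases, genes called lower of 1103 bases and all tested genes of 2231 bases. Genes called lower were also more abundant in the controls, with a median of 123 CPM against 31.2 CPM over all protein-coding genes. The libraries differed along this axis: in the eighth decile the median deviation from the mean of the 4 libraries was −0.24 and −0.27 in the controls, 0.35 in the first overexpression library and −0.01 in the second. When this trend was removed in each library, an alternative chosen after seeing the data, 1011 genes were called, 225 higher and 786 lower, of which 802 were among the original calls. Its part in each result was not tested beyond that alternative.

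**Figure D1:**
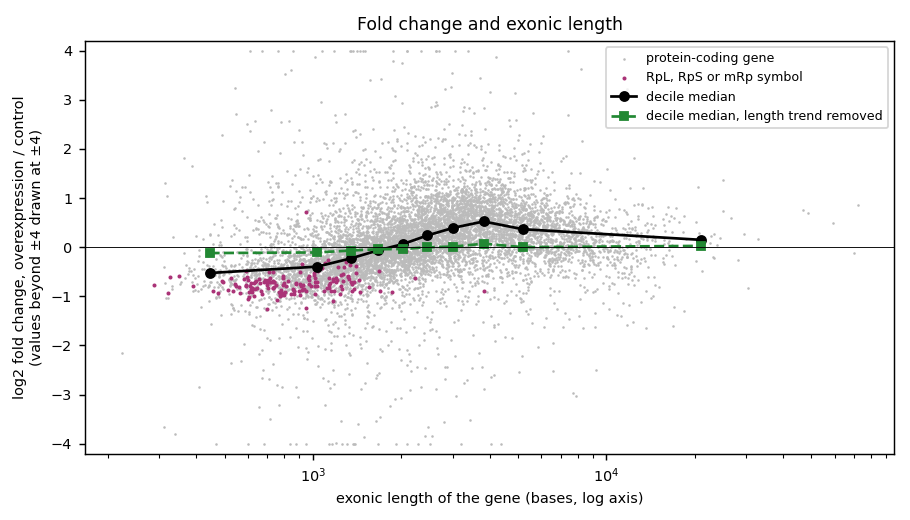
Log2 fold change of each protein-coding gene (y axis) against its exonic length in bases (x axis, logarithmic), with cytosolic and mitochondrial ribosomal protein genes in purple and decile medians drawn at the geometric middle of each decile. The medians climb from −0.53 in the shortest decile to 0.52 in the eighth and lie between −0.12 and 0.07 once the trend is removed.

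The largest rises among well-measured genes were in neuropeptides and in transcription factors of neurons and progenitors. Myosuppressin (Ms), a neuropeptide precursor, rose from 0.973 and 0.354 CPM to 22.2 and 12.8 CPM (4.73 ± 0.52, edgeR adjusted p = 0.00162). Mip, the precursor of the myoinhibiting peptides, rose from 4.28 and 2.7 CPM to 20.7 and 15.8 CPM (2.39). Both were low in each control and, as the choice of these genes required, higher in each overexpression library. The homeodomain genes bsh (3.02 and 2.09 CPM to 18.9 and 20 CPM, 2.93), Rx (0.869 and 1.9 CPM to 13.5 and 6.52 CPM, 2.85) and ap (10 and 12.9 CPM to 52.2 and 45.6 CPM, 2.09), known from brain and neuron development, rose together with the zinc-finger gene drm (2.71 and 0.451 CPM to 16.4 and 12.8 CPM, 3.21). The other genes among the 12 largest rises were jar, which encodes myosin VI (2.74), Trh (2.35), the temporal factor cas (2.30), erm (2.27), Gs2, a glutamine synthetase (2.27), and Arc1, a capsid-forming protein related to retrotransposon Gag (2.25).

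The largest falls held genes of diverse roles. Sema5c, a transmembrane semaphorin, fell from 42.5 and 59.1 CPM to 2.19 and 2.51 CPM (−4.43 ± 0.26, edgeR adjusted p = 0.000106), the smallest p of all genes. It lies at 3L:12067511-12081830 on the minus strand. The zinc transporter gene ZnT41F fell from 20.6 and 19.6 CPM to 1.11 and 2.06 CPM (−3.66). The cuticular protein genes Cpr64Ac (541 and 735 CPM to 56.9 and 97.1 CPM, −3.05) and Cpr76Bc (23.9 and 7.69 CPM to 1.86 and 1.5 CPM, −3.23) fell, as did the glutathione S-transferase gene GstD9 (327 and 264 CPM to 31.6 and 50.6 CPM, −2.85). Thor, the Drosophila 4E-BP that holds back cap-dependent translation, fell from 251 and 441 CPM to 29.5 and 69.7 CPM (−2.80 ± 0.54, edgeR adjusted p = 0.0311). In each of these the overexpression libraries lay below both controls, which was a condition of their choice. Also among the 12 largest falls were CHKov1 (−2.89), the metalloprotease gene tld (−2.69), the membrane protein gene Tmhs (−2.66), ASPP, a regulator of apoptosis and of Src signalling (−2.54), the piRNA pathway gene mael (−2.53) and c(2)M, a kleisin of the synaptonemal complex (−2.43).

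The 10 smallest p-values held Sema5c, mael, Tmhs, GstD9, ZnT41F and ap together with 4 further genes. Vdup1, an arrestin-domain gene related to mammalian TXNIP, fell from 176 and 165 CPM to 30.9 and 37.9 CPM (−2.31 ± 0.17, edgeR adjusted p = 0.000372). The transcription factors grh (−1.63), nerfin-1 (1.71) and D (1.62) completed the list and are described with the progenitor genes. Of the genes in these 3 paragraphs, drm, Gs2, Cpr76Bc and Thor lost their call without either of the overexpression libraries, and Thor also without the second control. Mip, cas, Gs2, Arc1, ap, Cpr76Bc, nerfin-1 and D lost it in the fit of 14 libraries.

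Genes of intermediate progenitors were more often called higher than lower, and neuroblast factors were called in both directions. Of 19 listed intermediate progenitor and temporal factors 9 were called higher (47.4%) and 4 lower (21.1%), with a median log2 fold change of 0.76. Of 19 type II neuroblast and self-renewal factors, a list that shares 7 of these called genes, 6 were called higher and 6 lower (31.6% each). Among all genes tested the shares were 8.86% and 12.2%. The shared genes include ase, described below with the progenitor genes, and pnt, described with the neuroblast factors. This second list had 4 higher and 8 lower with the length trend removed, 4 and 4 without either control, 6 and 9 without the second overexpression library and 3 and 2 in the fit of 14 libraries. With the length trend removed the first list still had 9 higher and 4 lower, and without any 1 library it had 8 to 10 higher and 4 lower. In the fit of 14 libraries it had 4 higher and 2 lower.

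The gene ase, which type II neuroblasts lack and maturing progenitors express, rose from 72.1 and 50.9 CPM to 219 and 206 CPM (1.79 ± 0.18, edgeR adjusted p = 0.000919). Its progenitor partner erm, which keeps progenitors from reverting to neuroblasts, rose from 15.6 and 9.08 CPM to 74.6 and 44.6 CPM (2.27 ± 0.32, edgeR adjusted p = 0.00457). The gene ham, which limits progenitor divisions, rose from 36.7 and 35.3 CPM to 187 and 92.8 CPM (1.96 ± 0.30, edgeR adjusted p = 0.0058). In all 3 the groups did not overlap, as in every gene called, and the first overexpression library was the higher.

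Members of the temporal series of the progenitors moved in different directions. Dichaete (D), the SOX factor of young progenitors, rose from 106 and 85.3 CPM to 321 and 267 CPM (1.62 ± 0.17, edgeR adjusted p = 0.00076). The gene opa, which ends the early phase, rose from 38.3 and 44.5 CPM to 191 and 107 CPM (1.84 ± 0.26, edgeR adjusted p = 0.00457). Grainyhead (grh), the middle factor, fell from 339 and 377 CPM to 108 and 123 CPM (−1.63 ± 0.15, edgeR adjusted p = 0.00067). Eyeless (ey), the late factor, rose from 19.4 and 22.5 CPM to 52.6 and 38.5 CPM (1.12 ± 0.21, edgeR adjusted p = 0.00795). The early and late factors were thus higher in the overexpression libraries and the middle one lower. The homeodomain genes hbn (18.8 and 21 CPM to 61.1 and 41.9 CPM, 1.37) and bsh also rose.

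**Figure D2:**
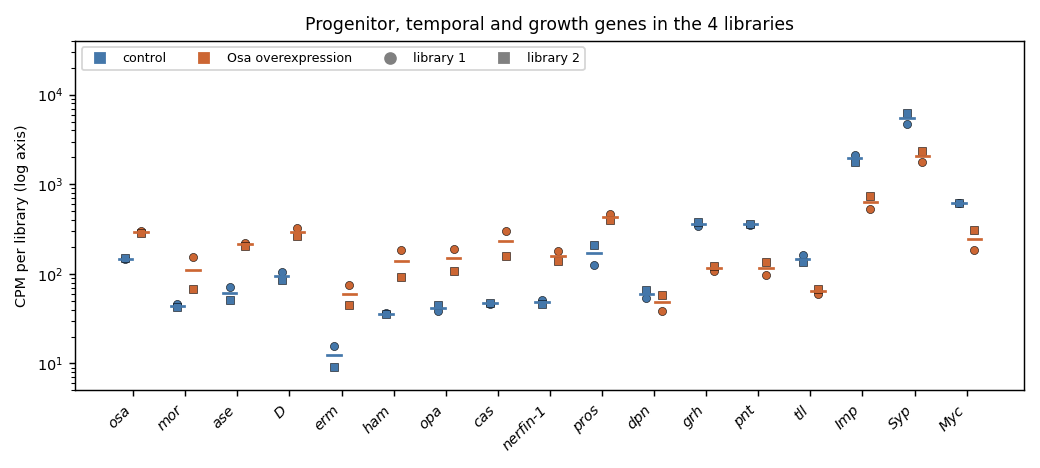
CPM (y axis, logarithmic) of 17 genes in each of the 4 libraries, controls in blue and Osa overexpression in orange, with circles and squares for libraries 1 and 2 and a short line at the mean of each group. The groups do not overlap for any gene drawn except dpn, the only gene drawn that was not called. The first overexpression library stands above the second in mor, ham, opa and cas.

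Factors on the neuroblast list went both ways, with 6 called higher, ase among them, and 6 lower. The ETS factor gene pnt, which is active in type II neuroblasts and represses ase there, fell from 351 and 363 CPM to 98.3 and 134 CPM (−1.62 ± 0.17, edgeR adjusted p = 0.000969). Six4, a homeodomain gene, fell from 119 and 134 CPM to 36.9 and 51.8 CPM (−1.52 ± 0.19, edgeR adjusted p = 0.00227). The nuclear receptor gene tll, which maintains type II identity, fell from 162 and 135 CPM to 60.2 and 67.4 CPM (−1.22 ± 0.16, edgeR adjusted p = 0.0027). The genes fru (−1.29), zld (−0.75) and the zinc-finger gene klu (−0.63) fell as well. The zinc-finger genes btd (0.69) and Sp1 (0.55), which specify type II neuroblasts, rose. The pan-neuroblast gene dpn held 53.9 and 66.2 CPM in controls and 38.9 and 57.8 CPM in overexpression libraries and was not called (−0.31 ± 0.21, edgeR adjusted p = 0.321). Its groups overlapped, and 59.3% of its exonic bases lie under exons of an antisense gene, whose reads these libraries cannot tell apart.

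The genes that time neuroblast age also changed. The RNA-binding protein genes Imp and Syp, which mark young and old neuroblasts in opposition, both fell. Imp went from 2128 and 1792 CPM to 529 and 733 CPM (−1.64 ± 0.18, edgeR adjusted p = 0.00162), and 14.3% of its exonic bases are shared with another gene. Syp went from 4701 and 6217 CPM to 1761 and 2374 CPM (−1.40 ± 0.20, edgeR adjusted p = 0.00382). The nuclear receptor gene svp, which is needed for the switch between these states, fell from 31.3 and 35.6 CPM to 11.6 and 11.4 CPM (−1.54 ± 0.21, edgeR adjusted p = 0.00331), and cas, an early factor, rose from 46.1 and 47.5 CPM to 304 and 157 CPM (2.30 ± 0.28, edgeR adjusted p = 0.00357). Of 17 genes of the neuroblast temporal list 2 were called higher (cas and usp) and 4 lower (Imp, Syp, svp and lin-28).

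Of the progenitor and neuroblast genes whose library values are given, ey lost its call without the first control. In the fit of 14 libraries the calls of ase, D, ey, hbn, tll and cas were lost and those of erm, ham, opa, bsh, grh, pnt, Six4, Imp, svp and Syp were kept.

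Genes of ganglion mother cells and of new neurons were higher. Of 19 such genes 11 were called higher and 0 lower (median 0.74). Prospero (pros), the homeodomain factor that ends self-renewal in the daughter cell, rose from 127 and 212 CPM to 468 and 404 CPM (1.37 ± 0.23, edgeR adjusted p = 0.00685). The zinc-finger gene nerfin-1, which holds neurons in the differentiated state, rose from 51.2 and 46.3 CPM to 180 and 139 CPM (1.71 ± 0.17, edgeR adjusted p = 0.00076). The Notch-responsive gene Hey rose from 6.92 and 4.25 CPM to 22.3 and 17.8 CPM (1.84), and the homeodomain gene onecut from 42 and 45 CPM to 78 and 84.4 CPM (0.90). The groups were apart in each, as in every gene called. With the length trend removed 8 of the 19 were called higher and 0 lower. Without the first control 5 were called, without the second 7, without the first overexpression library 12 and without the second 11, and in the fit of 14 libraries 0 were.

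Mature neuron genes followed with smaller changes. Of 30 such genes 8 were called higher and 0 lower (median 0.38). The RNA-binding protein gene elav, the standard neuronal marker, rose from 74.6 and 66.9 CPM to 109 and 109 CPM (0.62 ± 0.15, edgeR adjusted p = 0.0193), with 27.9% of its exonic bases shared with a gene on the same strand. The transporter gene Eaat2 rose from 18.7 and 18.8 CPM to 53.3 and 38.8 CPM (1.29). The synaptic vesicle gene nSyb (137 and 116 CPM to 254 and 189 CPM, 0.81) and the amyloid precursor-like gene Appl (100 and 93.4 CPM to 231 and 146 CPM, 0.96) rose as well. Calls fell to 3 with the length trend removed, to 3 and 2 without the first and the second control and to 0 in the fit of 14 libraries, and numbered 6 and 10 without the first and the second overexpression library.

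The summed level of the 4 neuron markers (elav, nSyb, brp and Syt1) was 380 and 315 CPM in controls and 579 and 491 CPM in overexpression libraries. That of 7 genes listed as type II neuroblast markers was 1382 and 1486 CPM in controls and 1170 and 1146 CPM in overexpression libraries. Of the 7, 2 were called higher (ase and btd) and 2 lower (pnt and klu). Type II neuroblasts lack ase, which rose from 72.1 and 50.9 CPM to 219 and 206 CPM. Its rise offset part of the fall in the summed level of the other listed genes. In bulk RNA, a change in the number of cells of a kind and a change in RNA per cell cannot be told apart. Nor can they for glia, whose 3 markers summed to 543 and 413 CPM in controls and 559 and 641 CPM in overexpression libraries. Of the 3, 0 were called by edgeR and 1 was at an unadjusted p under 0.05. Most of the sum was nrv2 (506 and 380 CPM in controls, 511 and 604 CPM in overexpression libraries). The marker repo held 0.38 and 0.45 CPM in controls and 1.11 and 1.78 CPM in overexpression libraries. Of 22 glial genes 3 were called higher and 2 lower, and the falls include pnt, described above with the neuroblast factors. The glial determinant gcm (1.06) and Gs2 rose, and the trehalose and sugar transporter gene Tret1-1 fell from 45.5 and 61.8 CPM to 22 and 31.2 CPM (−1.01). Glial rises numbered 0 with the length trend removed and in the fit of 14 libraries, 2 without either control, 1 without the first overexpression library, 4 without the second and 6 by DESeq2. Gs2 lost its call with the length trend removed and without either overexpression library, and Tret1-1 without the second control. Both lost it in the fit of 14 libraries.

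Genes of axon guidance and adhesion were higher in 12 of 38 and lower in 2, with a median of 0.48. By p, Fasciclin genes came first among the rises, with the largest fold change in Fas2 (1.84). Fas3 rose from 22.3 and 25.8 CPM to 60.5 and 47.6 CPM (1.17 ± 0.19, edgeR adjusted p = 0.00538) and Fas1 from 66.4 and 56.8 CPM to 147 and 109 CPM (1.06 ± 0.18, edgeR adjusted p = 0.00631). The 2 genes that fell were Sema5c and the adhesion gene side, a guidance cue for motor axons, which went from 47.3 and 54.4 CPM to 16.8 and 16.9 CPM (−1.59 ± 0.18, edgeR adjusted p = 0.00162). The falls held in every setting tried. The rises numbered 6 with the length trend removed, 3 and 5 without the first and the second control, 12 and 15 without the first and the second overexpression library, and 1 in the fit of 14 libraries.

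Genes of asymmetric division rose in 4 of 23 and fell in 0. Besides pros these were the Notch antagonist numb (113 and 118 CPM to 217 and 151 CPM, 0.67), its adaptor pon (75.7 and 63.2 CPM to 114.8 and 97.3 CPM, 0.61) and the Wnt receptor gene fz (15.8 and 13.5 CPM to 32.8 and 25.9 CPM, 1.00). Of 35 Notch pathway genes 3 were higher, a share near the background, and 0 lower. They were the target genes E(spl)m6-BFM (5.25 and 9.75 CPM to 22.3 and 28.5 CPM, 1.76) and E(spl)m3-HLH (5.7 and 5.15 CPM to 11.5 and 11.6 CPM, 1.09) and the ubiquitin ligase gene mib1 (13.3 and 13.8 CPM to 46.9 and 25 CPM, 1.41). Rises in the asymmetric division list numbered 1 without either control, 6 without the second overexpression library, 7 by DESeq2 and 1, beside 3 falls, with the length trend removed. Those in the Notch list numbered 1 and 2 without the first and the second control, 6 and 7 without the first and the second overexpression library and 5 with the length trend removed. The fit of 14 libraries called 0 in both. Leaving out either control removed the calls of numb, pon, fz, elav, nSyb, Appl and E(spl)m3-HLH, and leaving out the first control removed those of onecut and mib1. Without either overexpression library the call of pros was lost, and without the first that of numb. Removing the length trend ended the calls of nSyb, fz, pon and numb.

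Cytosolic ribosomal protein genes had the highest share of falls of the 41 lists. Of 86 tested cytosolic ribosomal protein genes 82 were called lower and 0 higher, with a median log2 fold change of −0.82. Together they accounted for 11.99% and 13.3% of all control counts and for 8.54% and 9.23% of those with overexpression. RpS20 fell from 1607 and 1782 CPM to 847 and 928 CPM (−0.93 ± 0.14, edgeR adjusted p = 0.00425), RpS26 from 1731 and 1837 CPM to 897 and 991 CPM (−0.92) and RpS4 from 1907 and 1974 CPM to 969.7 and 1090.1 CPM (−0.91). RpL24-like, a factor of large subunit assembly, fell from 363 and 439 CPM to 197 and 205 CPM (−0.998). The groups did not overlap in 84 of the 86, always with the overexpression libraries lower. These are short genes, with a median exonic length of 903 bases, and with the length trend removed 57 of 86 were called lower at a median of −0.47. The number called was 63 without the first control, 42 without the second, 80 and 83 without the first and second overexpression library, and 54 in the fit of 14 libraries.

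Mitochondrial ribosomal protein genes fell alongside, with 57 of 72 called lower and 0 higher (median −0.70). The gene mRpL23 fell from 163 and 160 CPM to 61.3 and 73.3 CPM (−1.26 ± 0.16, edgeR adjusted p = 0.00199), and mRpL28 from 328 and 367 CPM to 150 and 173 CPM (−1.10). Both overexpression libraries were under both controls in 71 of the 72 genes. Nuclear genes of oxidative phosphorylation were called lower in 47 of 66 and higher in 0 (median −0.63). The complex I subunit genes ND-19 (229 and 236 CPM to 113 and 129 CPM, −0.94) and ND-PDSW (291 and 317 CPM to 154 and 173 CPM, −0.89) were among them. The number of calls in both families moved with the length trend and with single libraries: with the length trend removed 16 of 72 and 16 of 66 were called lower, at medians of −0.34 and −0.34. Without the first control 13 and 12 were, without the second 9 and 11, and in the fit of 14 libraries 11 and 3.

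Transcripts of the mitochondrial genome were lower in 5 of 15 and higher in 0, with a median of −0.71. Of these, ND5 went from 915 and 686 CPM to 253 and 484 CPM (−1.12 ± 0.29, edgeR adjusted p = 0.0318) and COX2 from 2020.1 and 1789 CPM to 872 and 1270.4 CPM (−0.83). The second overexpression library lay between the first and the controls in both. The 5 calls were lost without the first control and in the fit of 14 libraries. In turn, more of the 15 were called lower without the second overexpression library, and 2 were in the fit with the length trend removed. These transcripts had no matched exonic length, so no trend was removed from them, and their median stayed at −0.71 in that fit.

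**Figure D3:**
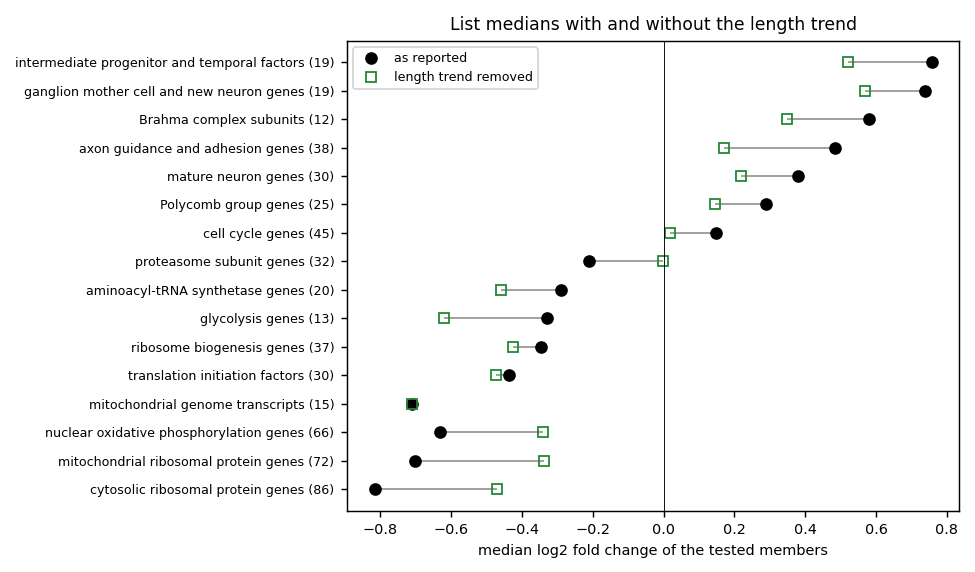
Median log2 fold change (x axis) of the tested members of 16 gene lists, with the number tested in brackets, as reported (black circles) and with the trend on exonic length removed in each library (green squares). Ribosomal protein and oxidative phosphorylation lists move toward 0 but stay below it, glycolysis genes move from −0.33 to −0.62, and proteasome genes move to 0. Mitochondrial genome transcripts had no matched exonic length, so no trend was removed from them.

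Regulators and earlier steps of protein synthesis were lower as well. Myc, the transcription factor that drives ribosome production and growth, fell from 611 and 619 CPM to 184 and 305 CPM (−1.33 ± 0.22, edgeR adjusted p = 0.00667). Of its exonic bases 20.3% are shared with a gene on the same strand and 40.9% with an antisense gene. Max, its DNA-binding partner (93.2 and 103 CPM to 58.6 and 68.7 CPM, −0.62), and bigmax (87.9 and 93.8 CPM to 52.2 and 53 CPM, −0.79) fell less. Of 37 ribosome biogenesis genes 14 were lower and 1 higher. They were led by hoip (460 and 471 CPM to 165 and 211 CPM, −1.31 ± 0.16, edgeR adjusted p = 0.00168) and NHP2 (606 and 605 CPM to 237 and 294 CPM, −1.19), both binders of small nucleolar RNA, and by the RNA polymerase I subunit gene RpI12 (65.6 and 71.7 CPM to 27.5 and 33.5 CPM, −1.17).

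Of 30 translation initiation factors 13 were lower and 0 higher (median −0.44). One of the 13 is Thor, a repressor of initiation, which has the lowest value of the list (−2.80). The gene eIF2beta, a subunit of the factor that brings in the initiator tRNA, fell from 645 and 731 CPM to 364 and 383 CPM (−0.88 ± 0.14, edgeR adjusted p = 0.0048). Of 20 aminoacyl-tRNA synthetase genes 6 were lower and 0 higher, with AsnRS (378 and 404 CPM to 228 and 225 CPM, −0.79) first. These 3 lists are of ordinary length (medians of 1895, 1878 and 2454 bases), and with the length trend removed 15, 16 and 9 of their members were lower. They rest on both controls: without the first control 4, 3 and 1 were lower and without the second 4, 2 and 0. In the fit of 14 libraries 2, 3 and 0 were. Myc kept its call in every setting tried, as did hoip, RpI12 and eIF2beta, while Max and bigmax lost theirs without either control and with the length trend removed.

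Glycolysis genes were lower in 4 of 13 and higher in 0. Gapdh1 fell from 1630.1 and 1296 CPM to 711 and 652 CPM (−1.10 ± 0.15, edgeR adjusted p = 0.00351) and Pglym78, a phosphoglycerate mutase, from 1027 and 892 CPM to 409 and 481 CPM (−1.11 ± 0.15, edgeR adjusted p = 0.00273). Tpi (−0.82) and Ldh, lactate dehydrogenase (289 and 200 CPM to 145 and 149 CPM, −0.74), were the other two. The length trend removed, 7 of 13 were lower, without the first control 2, and in the fit of 14 libraries 1. Ldh lost its call without the first control and without the first overexpression library, Tpi without the first control, and Gapdh1 kept it in every setting.

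In the insulin and TOR pathway 3 of 24 genes were higher and 5 lower. The receptor gene InR fell from 193 and 247 CPM to 84.5 and 117 CPM (−1.13 ± 0.19, edgeR adjusted p = 0.00653). The transcription factor foxo, which insulin signalling holds out of the nucleus, fell from 38.3 and 42.5 CPM to 11.3 and 15.8 CPM (−1.58 ± 0.23, edgeR adjusted p = 0.00374), and Thor, a known target of foxo, fell too. The related TOR inhibitors scyl (204 and 166 CPM to 463 and 402 CPM, 1.23 ± 0.16, edgeR adjusted p = 0.00218) and chrb (215 and 165 CPM to 363 and 315 CPM, 0.84) rose. Each of these separated the groups, as every called gene did. The list had 1 higher and 6 lower with the length trend removed, 1 and 2 without the second control and 8 and 7 without the second overexpression library. The calls of InR, foxo and scyl held in every setting, and chrb was lost without the second control, with the length trend removed and in the fit of 14 libraries.

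Most cell cycle genes did not pass the test. Of 45 tested, 10 were called higher and 0 lower, with a median of 0.15. The 4 with the smallest p included the origin licensing genes dup, which encodes Cdt1 (193 and 197 CPM to 322 and 295 CPM, 0.66 ± 0.13, edgeR adjusted p = 0.0106), Orc1 (50.4 and 56.1 CPM to 120 and 77.1 CPM, 0.89) and the helicase subunit gene Mcm5 (163 and 168 CPM to 329 and 232 CPM, 0.76). The anaphase-promoting complex activator fzr rose from 66.2 and 69.8 CPM to 107 and 102 CPM (0.62). Of the 45, 0 were called higher and 2 lower with the length trend removed. Without the first or the second control 0 and 1 were called higher, without the first or the second overexpression library 8 and 13 higher and 0 and 7 lower, and in the fit of 14 libraries 0.

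**Figure D4:**
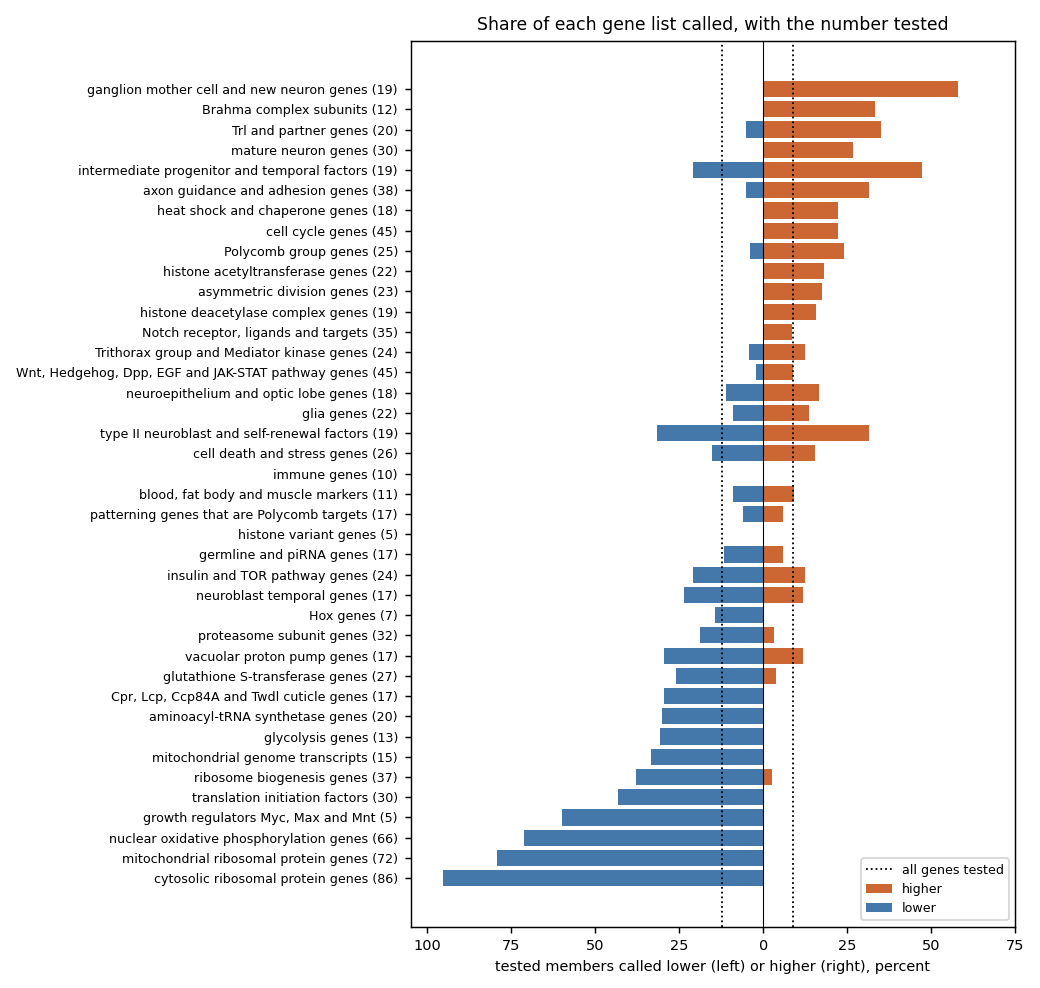
Percentage of the tested members of each gene list called higher (orange, right) or lower (blue, left), with the number tested in brackets, and dotted lines at the share of all tested genes (8.86% higher and 12.2% lower). Ribosomal protein genes lie at the bottom with 82 of 86 lower, and ganglion mother cell and new neuron genes at the top with 11 of 19 higher.

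Among chromatin regulators the calls were mostly higher and small. Of 25 Polycomb group genes 6 were higher (24.0%) and 1 lower (4.0%), and of 24 Trithorax group and Mediator kinase genes 3 (12.5%) and 1 (4.17%). Of all genes tested 8.86% were called higher and 12.2% lower. The Polycomb genes had a median exonic length of 4241 bases, and 23.9% of all protein-coding genes of 3344 to 4357 bases were called higher. The Trithorax rises were the targeted gene osa itself, mor and z. The Polycomb genes Scm (29.3 and 29.5 CPM to 72.9 and 42.8 CPM, 0.98), Jarid2 (53.2 and 60.8 CPM to 105 and 80.1 CPM, 0.70) and Kdm2 (4.41 and 7.82 CPM to 19.8 and 11.6 CPM, 1.36) rose. The gene corto fell from 232 and 235 CPM to 138 and 120 CPM (−0.86 ± 0.14, edgeR adjusted p = 0.0054). In Scm and Kdm2 the first overexpression library was the farther from the controls. The Trithorax gene z, zeste, rose (28.2 and 25.8 CPM to 65.6 and 40.7 CPM, 0.98), and ash2, a subunit of histone H3 lysine methyltransferase complexes, fell (260 and 228 CPM to 168 and 145 CPM, −0.64).

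Of 19 genes of histone deacetylase complexes 3 were higher and 0 lower, HDAC1 itself among them (289 and 276 CPM to 406 and 372 CPM, 0.46 ± 0.13, edgeR adjusted p = 0.0366). Of 22 histone acetyltransferase genes 4 were higher and 0 lower, which were the SAGA or ATAC genes Gcn5 (0.85), Ada3 (1.03) and Ada2a (0.78) and the helicase gene mle of the dosage compensation complex (1.14). Of 20 genes of the GAGA factor Trl and its partners 7 were higher, including the boundary factor genes mod(mdg4) (346 and 370 CPM to 768 and 535 CPM, 0.86) and pita (0.59), and 1, the remodeller subunit gene Nurf-38, was lower (−0.61). Of mod(mdg4) 56.9% of exonic bases are shared with other genes on the same strand. With the length trend removed the rises of these 5 lists, in the order given, numbered 1, 1, 0, 0 and 1. In the Trithorax list that rise was osa. Of the chromatin genes named in both paragraphs, osa and corto kept their calls without each library, and the rest lost theirs without the first control. The fit of 14 libraries called none of them.

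Stress and proteostasis genes were mixed. Of 18 heat shock and chaperone genes 4 were higher and 0 lower, of which Hsp70Bb (107 and 102 CPM to 165 and 192 CPM, 0.77) and Hsp68 (311 and 301 CPM to 496 and 480 CPM, 0.67) had the smallest p and the cochaperone gene stv the largest fold change (14.1 and 11.1 CPM to 29.1 and 21.3 CPM, 1.00). Hsp70Bb is one of several near-identical copies, so its count is uncertain. Of 26 cell death and stress genes 4 were higher, among them the death genes skl (4.73 and 3.61 CPM to 14.8 and 13.7 CPM, 1.77) and rpr (1.599) and the TNF-type ligand gene egr (21.3 and 23.4 CPM to 39.8 and 45.4 CPM, 0.93), and 4 lower, among them the caspase gene Dcp-1 (−0.94). Of 32 proteasome subunit genes 6 were lower, as Prosbeta4 was (−0.71), and 1 higher, and with the length trend removed 0 were called. The proteasome falls numbered 0 and 1 without the first and the second control, 12 without the second overexpression library and 1 with library size scaling. Of the cell death and stress genes 3 were higher and 6 lower with the length trend removed, 2 and 1 without the first control, 2 and 2 without the second and 7 and 7 without the second overexpression library. The heat shock calls were lost without either control and 2 were higher and 1 lower with the length trend removed. The fit of 14 libraries called none of the genes of this paragraph.

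Of 27 glutathione S-transferase genes 7 were lower and 1 higher. Besides GstD9, the falls included GstD1 (912 and 902 CPM to 398 and 492 CPM, −1.03 ± 0.15, edgeR adjusted p = 0.00381), GstO1 (−1.32) and GstT3 (−1.79), and GstT3 lost its call without the first overexpression library. The list had 5 lower with the length trend removed and in the fit of 14 libraries, 4 without the first control and 11 without the second overexpression library. Of 123 cuticle genes of the Cpr, Lcp, Ccp84A and Twdl families only 17 passed the filter. Of these 5 were lower (29.4%, against 12.2% of all genes tested) and 0 higher, and fewer were lower without the second control. Of 17 germline and piRNA genes mael and del (194 and 182 CPM to 92.3 and 95.7 CPM, −0.9996) were lower, and egg, a histone H3 lysine 9 methyltransferase, was higher (14.7 and 17.8 CPM to 56 and 31.8 CPM, 1.44). Of 17 vacuolar proton pump genes 5 were lower, led by VhaM9.7-b (−0.89), and 2 higher, Vha68-1 (1.08) and Vha100-1 (1.00). The 5 falls became 1 without the first control and in the fit of 14 libraries, and egg lost its call without the first control.

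Signalling genes were called higher at a share near the background. Of 45 genes of the Wnt, Hedgehog, Dpp, EGF and JAK-STAT pathways 4 were higher (8.89%) and 1 lower (2.22%), against 8.86% and 12.2% of all genes tested. The rises numbered 9 by DESeq2, 18 with library size scaling, 2 with the length trend removed, 1 and 2 without the first and the second control, 7 and 12 without the first and the second overexpression library and 0 in the fit of 14 libraries. As reported, the rises were in the beta-catenin gene arm (130 and 111 CPM to 347 and 201 CPM, 1.18), Stat92E (40.8 and 45.8 CPM to 89.2 and 76.1 CPM, 0.93), the Hedgehog pathway kinase gene fu (1.02) and fz. Of 7 tested Hox genes Ubx was lower (14.1 and 7.05 CPM to 4.75 and 2.43 CPM, −1.56 ± 0.45, edgeR adjusted p = 0.0378), a call lost without the first control, with library size scaling, in limma-voom and in the fit of 14 libraries. Of 17 patterning genes known as Polycomb targets ap was higher and hth lower (401 and 383 CPM to 199 and 268 CPM, −0.75, not called without either control or with library size scaling). Of 10 tested immune genes 0 were called by edgeR and 0 by DESeq2, and 1 was at an unadjusted p under 0.05, with cact at 0.38 ± 0.15 and Rel at 0.04 ± 0.18. The pigment gene w, which many fly transgenes carry as a marker, was called higher (202 and 263 CPM to 388 and 305 CPM, 0.58 ± 0.18, edgeR adjusted p = 0.0441), and lost the call in limma-voom, with the length trend removed, in the fit of 14 libraries and without either control or the first overexpression library.

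Of 453 tested non-coding RNA genes 8 were called higher and 35 lower, both smaller shares than the 8.86% and 12.2% of all tested genes. The named RNAs of this paragraph were chosen after their values were seen. The RNA lncRNA:cherub, which segregates asymmetrically in dividing neuroblasts, was the most counted gene of the controls and went from 72368 and 80404 CPM to 42914 and 39230.4 CPM (−0.90 ± 0.16, edgeR adjusted p = 0.00679). It took 6.55% and 7.33% of all counts in controls and 4.78% and 4.26% in overexpression libraries. The RNA lncRNA:CR40469 fell from 2762.5 and 6360.3 CPM to 111 and 157 CPM (−5.09 ± 0.47), and lncRNA:CR33938 from 9069 and 12062 CPM to 396 and 1081 CPM (−3.84 ± 0.57). The stress-responsive lncRNA:Hsromega (2508 and 1953 CPM to 3281 and 3807 CPM, 0.67) and the neuronal lncRNA:noe (3290.1 and 3793.5 CPM to 5433 and 5860.1 CPM, 0.67) rose. The snoRNA host genes Uhg1 (−0.91), Uhg3 (−0.64) and Uhg4 (−0.79) fell.

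Some genes were nearly absent from the libraries of one group, with 23 called higher and 30 lower at an absolute log2 fold change of at least 4. Of these 17 had no count in either control and 9 none in either overexpression library. Where 1 group had no counts the fold is a bound, taken as if that group had held 3 counts in all. Ratios have exact 95% intervals, which include counting error alone.

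Adjacent genes stood out among the genes nearly absent in overexpression libraries, and were named after their values were seen. CG10725 (3L:13437954-13439009) was counted 225 and 174 times in the controls and not at all in overexpression libraries, at least 159-fold lower. Its neighbour CG10154 (3L:13435680-13437136) had 162 and 103 counts against 0 and 0, at least 105-fold lower. In the 10 libraries of the other experiments neither gene exceeded 0.649 CPM, while the Osa controls held 2.82 to 6.79 CPM on the same scale. The low libraries for this pair therefore included the controls of the other experiments. Also nearly absent were lncRNA:CR42765, which had 150 and 67 counts in controls and 0 and 1 in overexpression libraries, and CG33970, in whose span it lies on the other strand, with 77 and 38 against 0 and 6. On the X chromosome lncRNA:CR45665, lncRNA:CR45666 and lncRNA:CR45667, which lie within 1 stretch of the minus strand, fell together, the first from 508 and 431 counts to 3 and 0 (ratio 374, interval 128 to 1816). Best4, a bestrophin-family gene, fell from 137 and 210 counts to 2 and 0 (ratio 207, interval 56.9 to 1718), and in the HDAC1 experiment it held 3.72 and 1.74 CPM in controls and 0 and 0.0564 CPM in RNAi libraries.

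Among genes nearly absent in the controls, the neuropeptide gene CCHa1 had 0 and 0 counts in controls and 108 and 159 in overexpression libraries, at least 74.5-fold higher. It held 0.874 to 3.78 CPM in the 4 HDAC1 experiment libraries and at most 0.0671 CPM in the 6 of the GAF experiment. Root, which encodes the ciliary rootlet protein rootletin, rose from 0 and 2 counts to 147 and 100 (ratio 103, interval 28.3 to 859). The neuropeptide-like gene Nplp2 went from 0 and 0 counts to 24 and 63, at least 24.3-fold higher.

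The hemocyte gene He was among the rises from no counts, with 48 and 20 counts in overexpression libraries and a bound of 18.98-fold. Also with 0 in both controls were NimB4, a Nimrod family gene (38 and 27 counts, 18.1-fold), and Glt, glutactin (44 and 28 counts, 20.1-fold). NimB4 and Glt were named after their values were seen. The 3 blood markers (Hml, NimC1 and He) summed to 0.0695 and 0.257 CPM in controls and 2.47 and 1.07 CPM in overexpression libraries. Hml was not called (edgeR adjusted p = 0.0587). NimC1 was below the filter, with 0 and 6 counts in controls and 12 and 0 in overexpression libraries. The 3 fat body markers summed to 9.56 and 12.3 CPM in controls and 3.13 and 4.43 CPM in overexpression libraries, nearly all of it Lsp1gamma (−1.52 ± 0.34, edgeR adjusted p = 0.0148). The 3 muscle markers, among them Mhc, summed to 1.35 to 1.94 CPM in the 4 libraries. The part of other cells in the results was not tested. He lost its call without the first control and without the first overexpression library, and Lsp1gamma without the second control. Both lost it in the fit of 14 libraries. Of the listed blood, fat body and muscle markers 0 were called higher by DESeq2 or with halved counts.

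Responses were set beside those of the GAF and HDAC1 RNAi experiments, which share no control with this one, in 1 fit of 14 libraries. The response to Osa overexpression differed from that to GAF RNAi in 321 of 11181 genes (2.87%). Of the 150 genes named by rule and called in the Osa experiment 16 were among them. The strongest was mael, which fell with Osa (−2.53) and was 2.02 in GAF RNAi, a difference of −4.55 ± 0.39 (edgeR adjusted p = 2e-05). For pnt (−1.62 and 0.33, edgeR adjusted p = 0.00748), grh (−1.63 and −0.07, edgeR adjusted p = 0.00486) and Syp (−1.40 and 0.40, edgeR adjusted p = 0.00157) the response differed as well. So did Vdup1 (−2.31 and −0.22, edgeR adjusted p = 0.000708), Sema5c (−4.43 and −0.76, edgeR adjusted p = 0.00357) and Tmhs (−2.65 and −0.68, edgeR adjusted p = 0.00537).

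No difference from GAF RNAi was called for the progenitor and neuron genes ase (1.79 and 1.33), erm (2.26 and 1.64), ham (1.95 and 1.56), opa (1.84 and 1.22), nerfin-1 (1.70 and 2.23) and pros (1.36 and 1.87), nor for Myc (−1.33 and −1.48). For osa itself the values were 0.99 and 0.10 (difference 0.89 ± 0.35, edgeR adjusted p = 0.163). The SEs of these differences were 0.35 to 0.69 on the log2 scale, so a missing call does not show that the responses are alike.

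Against HDAC1 RNAi 1 gene of 11181 differed (0.00894%), with 907 at an unadjusted p under 0.05, and 0 of the 150 named genes did by edgeR. Here too a missing call does not show that the responses are alike. The values were close for grh (−1.63 and −1.75), pnt (−1.62 and −1.66), opa (1.84 and 1.95), ase (1.79 and 1.70) and D (1.62 and 1.83), and apart for mael (−2.53 and 0.02, edgeR adjusted p = 0.0667) and Vdup1 (−2.31 and −0.58, edgeR adjusted p = 0.0667), which did not pass. Libraries of the HDAC1 experiment held 0.239% to 2.36% of their counts in mitochondrial genome transcripts and those of the Osa experiment 4.12% to 6.01%.

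**Figure D5:**
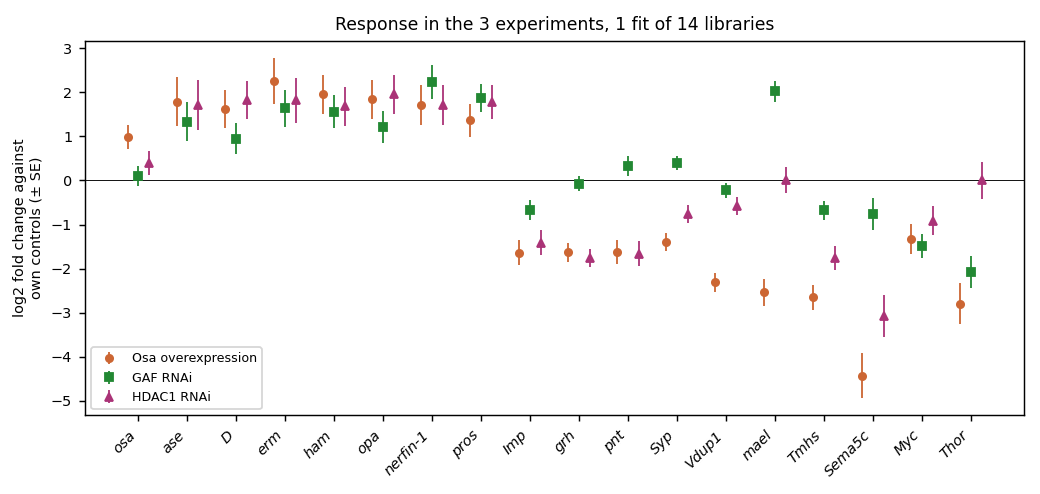
Log2 fold change against own controls with its SE (y axis) for 18 genes in the Osa overexpression, GAF RNAi and HDAC1 RNAi experiments, from 1 fit of 14 libraries. Progenitor genes such as ase, erm, ham and opa lie above 0 in all 3, grh and pnt lie between −1.62 and −1.75 in the Osa and HDAC1 experiments and at −0.07 and 0.33 in GAF RNAi, and mael lies on opposite sides in the Osa and GAF experiments.

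Calls were spread over the chromosomes. The share called higher ran from 7.12% on 2L to 10.7% on X, with 6.19% of 97 genes on the fourth chromosome, and the share called lower from 10.2% on X to 13.2% on 3L, with 3.09% on the fourth. Median log2 fold changes ran from 0.00 on 2L to 0.12 on X and on the fourth chromosome.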

How the data were processed

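Raw counts of each gene were deposited. The submitters' processing notes list featureCounts 2.0.3, SAMtools 1.6, HISAT2 2.2.1 and Trim Galore 0.6.10, and dm6 as the genome. The counting annotation, and whether reads or read pairs were counted, is not stated in these sources. Of deposited counts from 1 to 49 in the Osa libraries, 68.6% to 70.4% were even, so counting intervals may be too narrow. The kit (TruePrep V2, per the labels) does not mark strand. Coordinates and exonic lengths came from the BDGP6 annotation, in which 17772 of 17868 symbols matched a gene, 611 of them by a synonym.

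Samples were grouped by title. Genes were kept by the edgeR expression filter (minimum count 10, minimum total 15) on the 4 libraries, scaled by TMM and tested two-sided with edgeR 4.0.16 (R 4.3.3), by its robust quasi-likelihood test, with Benjamini-Hochberg adjustment over all genes tested and a threshold of 0.05. The SE was taken as the log2 fold change over the root of the F statistic. Log2 fold changes in brackets without an SE passed the same threshold in the Osa comparison unless stated. The common biological coefficient of variation was 0.216. Differences between experiments were contrasts in 1 fit of 14 libraries. The fit was tested on simulated data. The median chi-square between libraries of a group was 7.52 for controls and 18.8 for overexpression over well-counted genes, so libraries of a group differed beyond sampling noise.

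The members, the 41 gene lists and the tests were chosen with earlier results of these data known. Of 1160 listed genes found in the count table, 971 passed the filter, and 389 were called. Named were osa, the 12 largest rises and falls among called genes that reached 10 CPM in the higher group, with groups that did not overlap and a symbol other than a CG, CR or non-coding name, the 10 smallest p under the same conditions, up to 4 called members of each list by p (2 of highest level where none was called), and dpn, ase, erm, pros, pnt, elav, ham and opa; some of these are given only in counts. Alternatives were RLE factors, library size only, no filter, a mean of at least 5 CPM, non-robust estimates, a replicate block, counts divided by 2, DESeq2 1.42.0, limma-voom (limma 3.58.1), leaving out each library, 1 fit of all 14 libraries and calls of at least 2-fold. Removal of the length trend (loess, span 0.3, on exonic length, as an offset in each library) was added after seeing the data. Promoter motifs and sequences were not analysed here. Python 3.11.15 with matplotlib 3.10.9 drew the figures.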

Additional observations from a re-analysis of the deposited data

How the results depend on the processing

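The 1929 calls (811 higher, 1118 lower) kept within 1.5 times their number with RLE factors, a mean of at least 5 CPM, non-robust estimates, the replicate block (1827, of which 1730 shared), halved counts, DESeq2 (2449) and limma-voom (1687). Scaling by library size gave 1963 higher and 538 lower, no filter 1322 higher, and a minimum log2 fold change of 1 left 568. The fit of all 14 libraries gave 354 (49 higher, 305 lower), where osa did not pass (0.986). With the length trend removed 1011 were called, 225 of them higher. Leaving out 1 library gave 498 to 3535 calls, with 144 to 1714 higher and 354 to 1821 lower, and a lone library was then assumed to vary like the other group. The causes were not tested. Deviations of same-numbered libraries correlated at 0.0083 over 2 pairs, so the replicate numbers were not taken to pair samples. With the replicate block osa and 147 of the 150 named calls stayed, and Bap170, Ada2a and w lost theirs. Of 15 mitochondrial genome transcripts 8 were then lower, against 5. None of the 150 named calls changed direction in any setting, while uncalled values did for cact (−0.0423), Rel (−0.416) and His4r (0.00287) with the length trend removed and for Rel (−0.127 to 0.163) with a library left out. With 2 libraries a group no outlying library can be told, and low counts leave the folds of nearly absent genes open to the intervals given.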

Other observations

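One RNA of the dosage compensation system was uneven between the controls, a value noticed after the data were seen. The gene lncRNA:roX2 held 10 counts in the first control and 3830, 3824 and 2547 counts in the second control and the first and second overexpression libraries, and was not called (edgeR adjusted p = 0.914). Its companion lncRNA:roX1 held 28559, 42790, 59113 and 62527 counts in the same libraries (0.52 ± 0.17, edgeR adjusted p = 0.056).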
